A study of Mus musculus with 14 samples.

Results

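The EGF receptor family was followed through normal mouse intestine, intestinal adenomas and a colon carcinoma cell line. Its 10 members here are 3 receptors (Egfr, Erbb2 and Erbb3) and 7 ligands (Areg, Ereg, Egf, Btc, Hbegf, Tgfa and Nrg1). The members were chosen by gene name, as the array probes that carry one of these symbols. They are 10 of 36282 gene names and are read by 12 of 55681 probes. Gene expression was measured on 14 one-colour arrays in 5 groups. Small intestine (3 arrays) and colon (3 arrays) were tissue of the strain C57BL/6J by the labels. For its methylation comparison the paper names mucosa of both, and whether muscle was removed from the array samples is not stated. The paper describes both as tissues of healthy control mice, its wild-type animals being adult. Its methods, however, also name APCmin/+ mice as a source of normal colon. The genotype behind the colon arrays is therefore not settled. Macroscopic adenomas (3 arrays) and the tissue adjacent to adenoma (2 arrays) were whole pieces from APCmin/+ mice, also of C57BL/6J background by the paper. These mice carry 1 truncating Min allele of the Apc tumour suppressor in every cell and form adenomas mostly in the small intestine. CT26 (3 arrays) is a mouse colorectal carcinoma line obtained from ATCC, with no stroma and no matched normal tissue of its own. The paper does not state the strain of the line, so strain may also differ between CT26 and colon. The study's sample list gives 1 APCmin/+ mouse as the source of all the adenoma and adjacent pieces, so the spread between those arrays is that between pieces, and genotype, mouse and age cannot be told apart from the step to adenoma when they are set against wild-type intestine. Nothing in the labels says that the CT26 arrays came from separate cultures, so their p-values measure only the spread between these samples, which may be technical.

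ERBB receptors are tyrosine kinases that signal as pairs. Areg, Ereg, Egf, Btc, Hbegf and Tgfa are made as membrane-bound precursors, released by sheddase proteases, and bind EGFR (Ereg, Btc and Hbegf also bind ERBB4), whereas Nrg1 binds ERBB3 and ERBB4. ERBB2 has no known ligand and is the preferred partner of the others, and ERBB3 has little kinase activity of its own and passes its signal mainly to the PI3K pathway. In the intestine the pathway sustains proliferation of the crypt, with ligands supplied both by epithelial cells and by the surrounding mesenchyme.

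Levels are given as scaled log2 signal: the log2 of a probe's background-subtracted signal minus the 75th percentile of the same array, so that 0 is a fairly bright probe and 1 unit is a doubling. The scanner scored 46.85% to 58.21% of probes as well above background on each array. A gene was called changed when at least 1 of its probes had a log2 fold change of 1.2 or more in size and a limma adjusted p of 0.01 or less over all probes tested. Colon replicate 3 stood apart: its log2 signals correlated at r = 0.939 and 0.937 with the other colon arrays, which correlated at 0.979 with each other, and at 0.960 to 0.966 with the small intestine arrays. The median scaled log2 signal of 10 small intestine enterocyte markers was 5.80 on that array, against -2.66 and -1.58 on the other colon arrays and 5.89 to 8.81 on small intestine, so calls against colon are given with and without it. The study's sample list places 1 colon sample under an APCmin/+ mouse, while the labels give C57BL/6J for all 3. Epithelial markers such as keratins and cadherin were well above background on every tissue array (8 of 8) but on CT26 for only 2 to 3 of 8, with medians of -6.75 to -6.34 on CT26 and 6.82 to 7.97 on colon.

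**Figure D1:**
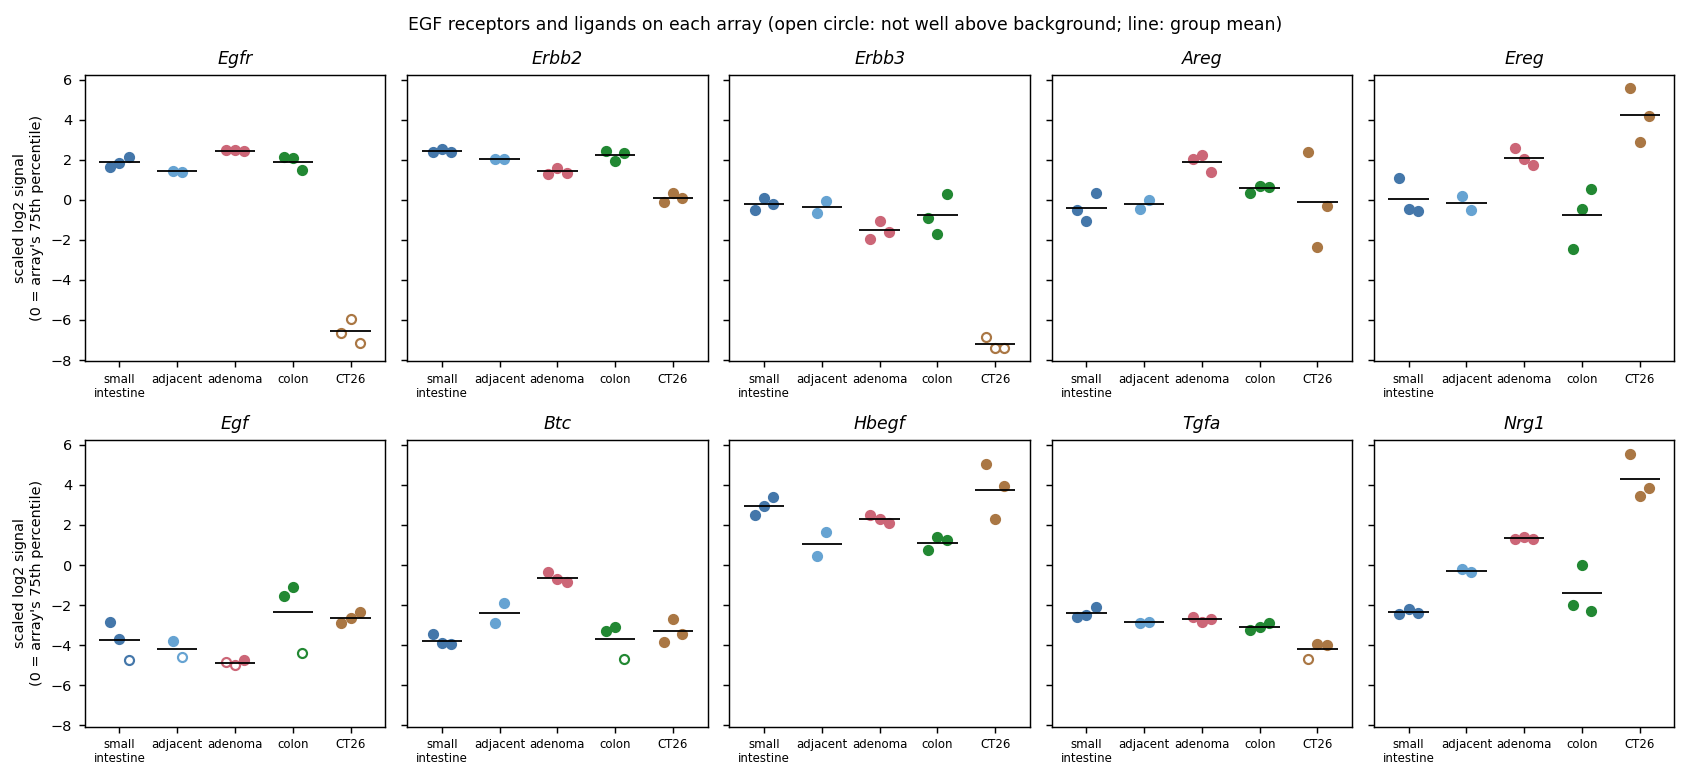
Scaled log2 signal (0 is the 75th percentile of the array) of the read probe of each member, with 1 point per array, the group mean as a line, and open circles for arrays on which the probe was not well above background. Egfr and Erbb3 were open on all 3 CT26 arrays, Nrg1 had its lowest mean on small intestine and its highest on CT26, and Btc was highest on the 3 adenoma arrays.

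In adenomas compared with small intestine, 3 ligands rose (Nrg1, Btc and Areg) and 1 receptor fell (Erbb3), among 9 members that passed the filter on dim probes. The background of that comparison was high, with 12.2% of all genes tested called higher and 12.1% called lower. Against the adjacent tissue only Nrg1 was called higher, beside 2.64% of all genes, and 0 members were called lower, beside 2.03%. There 8 of 9 tested members had an unadjusted limma p under 0.05, as had 11281 of 29734 probes. In CT26 compared with colon, Ereg and Nrg1 rose, beside 23.5% of genes called higher, and Egfr, Erbb2 and Erbb3 fell, beside 17.1% called lower. No member passed limma's thresholds between adenoma and colon, where 2.27% of genes were called higher and 1.73% lower. There 7 members had an unadjusted limma p under 0.05, beside 8268 of 29174 probes. Nor was any member called in adjacent tissue against small intestine (0.0092% of genes called) or in colon against small intestine (0.00964%). In the former 4 members had an unadjusted limma p under 0.05, beside 8722 of 28833 probes. In the latter 3 members did, beside 6419 of 27302 probes. Without colon replicate 3 the same 5 members were called between CT26 and colon, where the read probes gave log2 fold changes of -2.08 for Erbb2, 5.67 for Ereg and 5.27 for Nrg1, and Hbegf (2.69) and Tgfa (-1.05) were again not called. In that setting 22.4% of all genes were called higher and 21.0% lower. Also without that array, 0 members were called between colon and small intestine. Between adenoma and colon 5.51% of all genes were then called higher and 7.44% lower. There Btc was called higher (2.59 ± 0.20, limma adjusted p = 0.000967) and Egf lower (-3.54 ± 0.20, adjusted p = 0.000441). Egf was not tested there with all arrays kept, and passed the filter only through the remaining colon arrays. Only 1 of 3 adenoma arrays was well above background for Egf, so the size of its change is not a measurement. These comparisons share groups and so are not independent of one another. All are of bulk RNA, in which fewer cells of a type and less RNA per cell cannot be told apart.

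**Figure D2:**
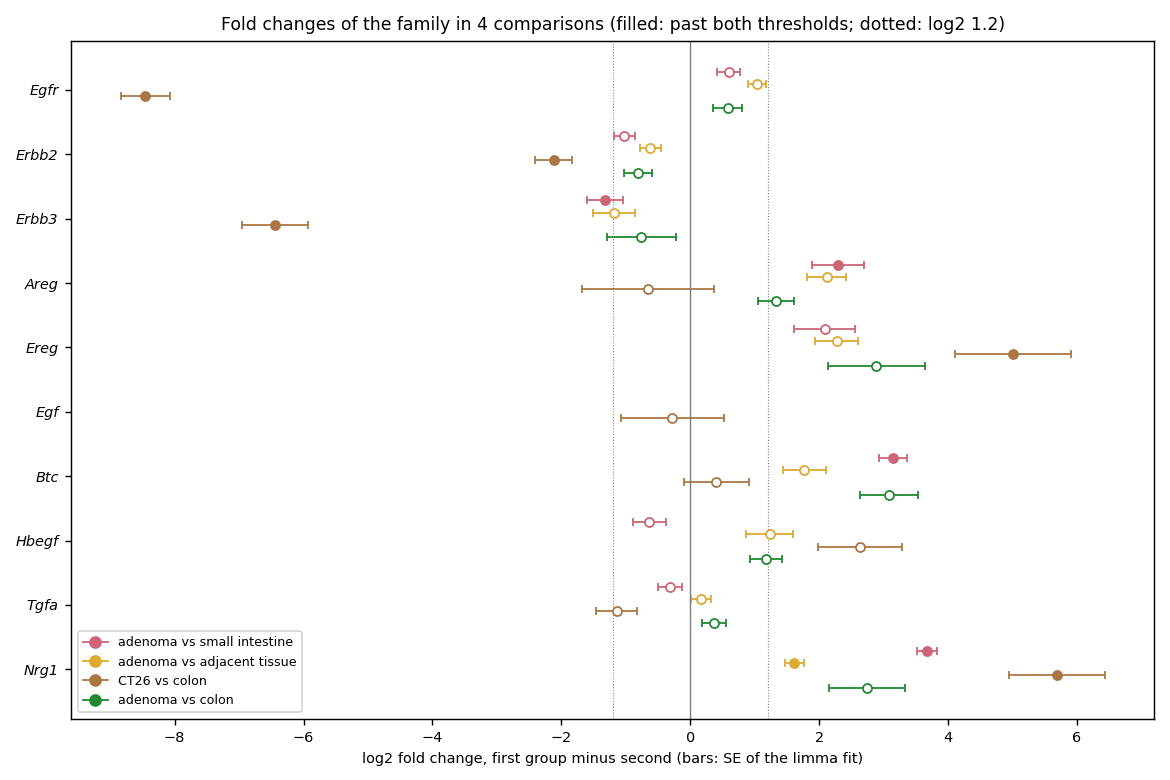
Log2 fold change (first group minus second) of the read probe of each member in 4 comparisons, with the standard error of the limma fit as bars and filled points where both thresholds were passed; dotted lines mark log2 fold changes of -1.2 and 1.2. The 3 receptors lie left of 0 in CT26 against colon, Erbb2 at -2.12. The Egfr and Erbb3 points there are fitted to CT26 signals not well above background, so their place is not a measurement. Areg, Ereg, Btc and Nrg1 lie right of 0 in all 3 adenoma comparisons.

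Egfr, the receptor of most ligands of the family, was no lower in adenomas than in the tissues around them, and its brightest probe was not well above background in CT26. On that probe (mm9 chr11:16813815-16813874, plus strand) the scaled log2 signal was 1.64, 1.84 and 2.11 on small intestine, 1.43 and 1.41 on adjacent tissue and 2.48, 2.48 and 2.41 on adenoma. The adenoma arrays thus lay above all arrays of either tissue. The log2 fold change was 0.59 ± 0.18 (SE) against small intestine (limma adjusted p = 0.0264) and 1.04 ± 0.14 against adjacent tissue (limma adjusted p = 0.00969), which is past the p threshold but under the fold threshold. Colon gave 2.11, 2.06 and 1.47, the lowest being replicate 3, and CT26 gave -6.65, -5.94 and -7.13, none of them well above background. By the rule used here, Egfr signal was at least 143-fold lower in CT26 than in colon (limma adjusted p = 3.07e-06). The bound is set by the dimmest signals that the scanner scored as well above background. That score has no cutoff common to the arrays: Epgn at -5.06 passed on CT26 replicate 3 but not on CT26 replicate 1. Whether a single cutoff held within each array was not examined, and the bound is not a strict limit. The fitted log2 fold change was negative and called in all 13 alternatives but ran from -8.77 to -5.17, nearest 0 with the authors' table, so the bound holds for the scaling used here.

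The other Egfr probes moved the same way in CT26 but by different amounts. The array's annotation assigns the brightest probe to transcript NM_207655 and the other 2 to NM_007912, and levels of different probes cannot be set against each other. The second probe (chr11:16787172-16787231) was well above background on 0 of 3 CT26 arrays and at least 17.4-fold lower than in colon. The last one (chr11:16783556-16783615), whose sequence is shown because it is the only Egfr probe with measurable signal in CT26, read -3.80, -4.26 and -4.02 there against -0.47, -0.56 and -1.36 in colon.
Egfr last probe: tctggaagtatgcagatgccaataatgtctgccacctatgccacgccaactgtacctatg
Its log2 fold change was -3.23 ± 0.34 (limma adjusted p = 0.000195), a 9.40-fold lower signal. In adenoma against adjacent tissue the second and last probes gave log2 fold changes of 1.25 ± 0.26 (adjusted p = 0.0273) and 0.78 ± 0.20 (adjusted p = 0.0456) in limma, the same direction as the first, and against small intestine 0.29 and 0.39, with overlapping groups.

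**Figure D3:**
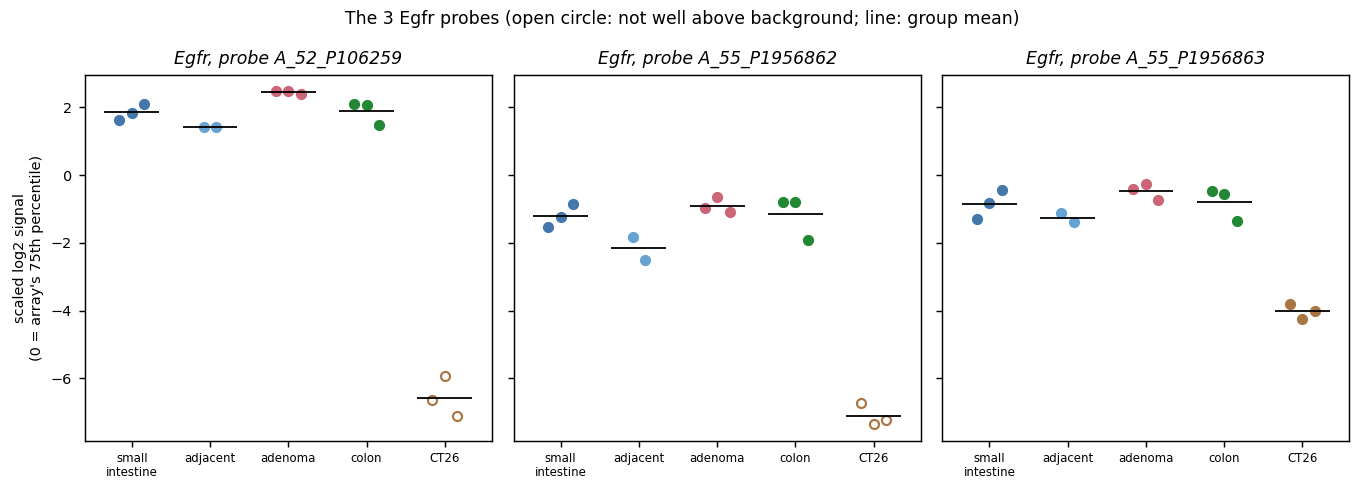
Scaled log2 signal of the 3 Egfr probes on each array, with group means as lines and open circles for arrays on which the probe was not well above background. All 3 probes were lowest on CT26, and the last (right) stayed well above background there, at -4.26 to -3.80.

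Erbb2, the ligandless partner receptor, was lower in both kinds of tumour sample, but passed both thresholds only in CT26. Its probe (mm9 chr11:98298103-98298162, plus strand) read 2.39, 2.55 and 2.38 on small intestine, 2.04 and 2.02 on adjacent tissue, and 1.28, 1.60 and 1.36 on adenoma. The adenoma arrays lay below both tissues, with a log2 fold change of -1.03 ± 0.16 against small intestine (limma adjusted p = 0.00264, under the fold threshold) and -0.62 ± 0.17 against adjacent tissue (adjusted p = 0.0516). Colon read 2.43, 1.94 and 2.32 and CT26 read -0.10, 0.35 and 0.08, a 4.35-fold lower signal (log2 fold change -2.12 ± 0.29, limma adjusted p = 0.00072). Unlike Egfr and Erbb3, Erbb2 was well above background on all 3 CT26 arrays.

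Erbb3, the neuregulin receptor that feeds PI3K, was lower in adenomas than in small intestine and was not well above background in CT26. The probe sequence is shown because the loss of signal in CT26 rests on this 1 probe (mm9 chr10:128006424-128006483, minus strand).
Erbb3 probe: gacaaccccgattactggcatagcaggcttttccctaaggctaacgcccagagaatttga
It read -0.53, 0.11 and -0.21 on small intestine, -0.66 and -0.04 on adjacent tissue and -1.94, -1.05 and -1.61 on adenoma. The adenoma arrays lay below the others, and the log2 fold change against small intestine was -1.32 ± 0.28 (limma adjusted p = 0.00762). The call was lost in 8 of 14 alternatives, with values of -1.57 to -1.11, among them the fits without small intestine replicate 2 or 3 (-1.16 and -1.32) and without adenoma replicate 1 or 3 (-1.12 and -1.29). Colon was spread widely, at -0.92, -1.71 and 0.31, the highest being replicate 3. CT26 gave -6.86, -7.38 and -7.41, none well above background, so that the signal was at least 22.8-fold lower than in colon (limma adjusted p = 4.69e-05). This bound too holds for the scaling used here, since the fitted log2 fold change, called in all 13 alternatives, ran from -6.91 to -2.61, nearest 0 with the authors' table. Epithelial markers were lower in CT26 too, with 8 of 8 called, and their part in the receptor results was not tested.

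Nrg1, the ligand of ERBB3 and ERBB4, was the member called in the most comparisons, 3. Its probe (mm9 chr8:32928500-32928559, minus strand) is shown because it was called in both tumour comparisons.
Nrg1 probe: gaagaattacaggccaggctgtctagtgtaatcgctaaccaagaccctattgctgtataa
It read -2.45, -2.18 and -2.41 on small intestine, -0.21 and -0.35 on adjacent tissue and 1.31, 1.40 and 1.29 on adenoma. The groups did not overlap, and adjacent tissue lay between normal intestine and adenoma. Adenoma was 12.8-fold above small intestine (log2 fold change 3.68 ± 0.16, limma adjusted p = 4.97e-05) and 3.06-fold above adjacent tissue (1.61 ± 0.15, adjusted p = 0.00448). Adjacent tissue was 4.19-fold above small intestine (2.07 ± 0.21), which did not pass the threshold (limma adjusted p = 0.0364). The adenoma to adjacent call was lost in 8 of 13 alternatives with values of 1.48 to 1.73, including when slide was a block (limma adjusted p = 0.0129) and when adjacent replicate 1 or any adenoma array was left out.

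In colon Nrg1 read -1.97, -0.01 and -2.27, and in CT26 5.55, 3.43 and 3.86. All CT26 arrays lay far above all colon arrays, a 51.8-fold difference (log2 fold change 5.70 ± 0.74, limma adjusted p = 0.000551), and the log2 fold change ran from 4.99 to 6.40 over 14 alternatives. A list of 8 markers of fibroblasts, cells known to make neuregulin, had medians of 2.41 to 2.47 in adenoma, 1.56 to 1.69 in adjacent tissue and -0.82 to 1.53 in small intestine, with 3 of 8 called higher in adenoma than in small intestine. Their summed level was 6.51 to 6.73 in adenoma and 3.75 to 6.15 in small intestine. In CT26 6 of the 8 were well above background, 2 were called higher and 3 lower than in colon, and the summed level was 7.77 to 8.31 against 5.17 to 6.28. The part of these cells in the Nrg1 result was not tested.

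Over all 14 arrays, the genes whose profile was nearest to that of Nrg1, after centring each profile on its own mean, were Spry4, Trip6 and Gpc1. The root mean square difference from Nrg1 was 0.55, 0.59 and 0.63 log2 units, where the standard deviation of Nrg1 itself was 2.49, among 15636 candidate genes. Spry4 is a feedback inhibitor of receptor tyrosine kinase signalling, Trip6 a focal adhesion protein and Gpc1 a heparan sulfate proteoglycan of the cell surface. The arrays share their groups, so this likeness describes mainly the differences between the 5 groups. The scanner detected Spry4 in 0 of 3 small intestine, 1 of 2 adjacent and 1 of 3 colon samples, so its likeness rests partly on signals near background.

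Areg and Ereg, EGFR ligands whose genes are neighbours on chromosome 5, were both higher in adenomas, with Areg alone past both thresholds. The Areg probe (mm9 chr5:91570090-91570149, plus strand) read -0.51, -1.06 and 0.36 on small intestine, -0.45 and 0.00 on adjacent tissue and 2.04, 2.25 and 1.38 on adenoma.
Areg probe: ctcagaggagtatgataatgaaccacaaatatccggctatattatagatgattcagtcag
All adenoma arrays lay above all arrays of both tissues. The log2 fold change was 2.29 ± 0.40 against small intestine (4.90-fold, limma adjusted p = 0.00351) and 2.12 ± 0.31 against adjacent tissue (4.33-fold, adjusted p = 0.0111, past the fold threshold only). The call against small intestine was lost in 5 of 14 alternatives, with values of 1.96 to 2.67.

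The Ereg probe (mm9 chr5:91522553-91522612, plus strand) read 1.11, -0.48 and -0.57 on small intestine, 0.19 and -0.53 on adjacent tissue and 2.56, 2.04 and 1.72 on adenoma. Small intestine replicate 1 was the highest of the normal arrays but still below every adenoma array. The log2 fold change was 2.09 ± 0.47 against small intestine and 2.27 ± 0.33 against adjacent tissue, with limma adjusted p of 0.01004 (just above the threshold) and 0.01112. Ereg was called against small intestine in 6 of 14 alternatives, among them the authors' own normalized values and the fit without small intestine replicate 1, where the log2 fold change was 2.63. Within slide 1 and slide 2 the log2 fold changes against small intestine were 1.78 and 3.31 for Areg and 1.87 and 2.51 for Ereg.

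In CT26 these neighbours parted. Ereg read 5.60, 2.89 and 4.19 in CT26 and -2.45, -0.44 and 0.56 in colon. All CT26 arrays lay above all colon arrays, a 32.1-fold difference (log2 fold change 5.005 ± 0.90, limma adjusted p = 0.00256) that missed the threshold without CT26 replicate 1 (4.32, adjusted p = 0.0127) or replicate 3 (5.02, adjusted p = 0.0111). Areg read 2.38, -2.34 and -0.32 in CT26 against 0.35, 0.71 and 0.63 in colon. The CT26 arrays lay on both sides of colon and spread over more than 4 log2 units, with a log2 fold change of -0.66 ± 1.03 (limma adjusted p = 0.626) that became 0.47 without CT26 replicate 2. CT26 replicate 1 was the highest and replicate 2 the lowest of the line for Areg, Ereg, Hbegf and Nrg1 alike.

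Btc, betacellulin, a ligand of both EGFR and ERBB4, rose 8.85-fold in adenomas. Its probe (mm9 chr5:91786948-91787007, minus strand) read -3.46, -3.91 and -3.95 on small intestine, -2.91 and -1.88 on adjacent tissue and -0.35, -0.70 and -0.83 on adenoma. As with Nrg1 the groups did not overlap, with adjacent tissue in the middle. The log2 fold change was 3.15 ± 0.21 against small intestine (limma adjusted p = 0.000127), 1.77 ± 0.34 against adjacent tissue (adjusted p = 0.0219) and 1.38 ± 0.36 between adjacent tissue and small intestine (adjusted p = 0.0833). Colon read -3.31, -3.11 and -4.71, with replicate 3 not well above background, and CT26 read -3.82, -2.70 and -3.42. Btc in CT26 thus overlapped colon (log2 fold change 0.40 ± 0.51, limma adjusted p = 0.536), while adenoma was 3.09 ± 0.45 above colon (adjusted p = 0.0108), a call made only without colon replicate 3 or in 3 other alternatives. Over the alternatives the log2 fold change ran from 2.01 to 3.30 against small intestine, lowest with normexp background correction, and from 1.90 to 3.39 against colon.

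Reference promoters from RefSeq (GRCm38.p6) were given for 6 of the 10 members (Egfr, Erbb2, Areg, Egf, Btc and Tgfa). The 250 bases upstream of the start site are shown for Areg and Btc, both called higher in adenomas and both on chromosome 5, as chr5:91139349-91139598 (plus strand) and chr5:91402995-91403244 (minus strand). Both strands were searched for a cyclic AMP response element (TGACGTCA), an AP-1 site (TGANTCA), a TCF/LEF site (CTTTGAT) and a TATA box (TATAAA), none of which overlapped another, and matches are in capitals.
Areg promoter: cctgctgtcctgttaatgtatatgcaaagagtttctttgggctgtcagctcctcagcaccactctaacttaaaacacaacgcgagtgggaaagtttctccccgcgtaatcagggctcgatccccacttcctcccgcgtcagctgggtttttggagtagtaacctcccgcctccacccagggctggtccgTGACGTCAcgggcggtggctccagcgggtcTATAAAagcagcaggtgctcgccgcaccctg
Btc promoter: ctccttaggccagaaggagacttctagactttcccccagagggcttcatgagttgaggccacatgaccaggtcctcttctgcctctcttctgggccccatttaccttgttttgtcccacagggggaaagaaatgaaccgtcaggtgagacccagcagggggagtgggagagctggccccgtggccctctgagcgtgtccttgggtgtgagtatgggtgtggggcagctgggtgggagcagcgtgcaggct
The Areg window held 1 cyclic AMP response element, starting 61 bases before the start site, and 1 TATA box starting 31 bases before it. Of 32851 promoter windows of this length, 1.55% held the first and 12.4% the second, while 6.75% held the AP-1 letters and 3.21% the TCF/LEF letters. None of the 4 motifs was found in the Btc window or in those of Egfr, Erbb2, Egf and Tgfa, which says only that these letters are not in these windows.

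Hbegf, the heparin-binding ligand of EGFR and ERBB4, followed another order. It read 2.48, 2.94 and 3.38 on small intestine, 0.47 and 1.66 on adjacent tissue, 2.51, 2.30 and 2.08 on adenoma, 0.75, 1.39 and 1.23 on colon and 5.05, 2.28 and 3.93 on CT26. Adjacent tissue and colon were lowest and overlapped each other, and small intestine overlapped both adenoma and CT26. Adjacent tissue was 3.65-fold and colon 3.51-fold below small intestine, with log2 fold changes of -1.87 ± 0.44 and -1.81 ± 0.32 that did not pass limma's threshold (adjusted p = 0.0724 and 0.064). CT26 was 6.20-fold above colon (2.63 ± 0.65, limma adjusted p = 0.0112), and Hbegf was called there in 4 of 14 alternatives, with values of 1.98 to 3.37.

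Tgfa, transforming growth factor alpha, changed little among the tissues. Group means ran from -3.07 ± 0.17 (SD) in colon to -2.39 ± 0.26 in small intestine, with adenoma at -2.70 ± 0.12 and adjacent tissue at -2.87 ± 0.05. In CT26 it read -4.69, -3.94 and -4.01, the first not well above background, all below colon at -3.22, -3.10 and -2.89, with a log2 fold change of -1.14 ± 0.32 (limma adjusted p = 0.0179). Egf, the ligand that names the family, was detected above background by the scanner's score on 2 of 3 small intestine, 1 of 2 adjacent, 1 of 3 adenoma, 2 of 3 colon and 3 of 3 CT26 arrays. Among pairs of groups with all arrays kept, it passed the filter only between CT26 (-2.87, -2.64 and -2.35) and colon (-1.56, -1.09 and -4.38, the last being replicate 3). Those groups overlapped (log2 fold change -0.28 ± 0.80, limma adjusted p = 0.794), and without colon replicate 3 CT26 lay below both remaining colon arrays (-1.30, adjusted p = 0.0109).

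The order of group means thus differed by member. From low to high it ran CT26, adjacent, small intestine, colon, adenoma for Egfr, with only small intestine and colon overlapping, and small intestine, colon, adjacent, adenoma, CT26 for Nrg1, with the first 3 overlapping as neighbours. For Ereg it ran colon, adjacent, small intestine, adenoma, CT26, with the first 3 overlapping. For Erbb2 and Erbb3 CT26 was lowest and adenoma second lowest, the 3 other tissues overlapped as neighbours, and for Erbb3 adenoma also overlapped colon. For Areg and Btc adenoma had the highest mean and was apart from the group next to it, below which neighbours overlapped, although CT26 replicate 1 read above every adenoma array for Areg (2.38).

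The 2 tumour contrasts were also compared directly, as the CT26 minus colon difference less the adenoma minus small intestine difference. By limma 3 members had a lower change in CT26 (Egfr, Erbb3 and Btc), beside 16.5% of all genes tested, and 1 a higher change (Hbegf), beside 17.9%. The fitted differences were -2.74 ± 0.59 for Btc (adjusted p = 0.00311, lost with quantile normalization at -2.18 and adjusted p = 0.01895) and 3.27 ± 0.78 for Hbegf (adjusted p = 0.0056), the latter lost in 10 of 20 alternatives with values of 2.56 to 4.01. For Egfr and Erbb3 the fitted differences of -9.05 and -5.12 (adjusted p = 4.58e-08 and 7.32e-05) include CT26 signals that were not well above background, so their size is not a measurement. The Erbb3 call was lost with the authors' table (-1.48, limma adjusted p = 0.04095) and with normexp (-1.83, adjusted p = 0.01334). Erbb2, at -1.10 (limma adjusted p = 0.01307) and not called, was called in 3 of 20 alternatives, with values of -1.39 to -1.24. For Nrg1, Ereg and Areg the differences of 2.02 ± 0.85, 2.92 ± 1.15 and -2.95 ± 1.26 did not pass (limma adjusted p = 0.0747, 0.058 and 0.0777).

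Slide was crossed with group, and the calls were looked at within each of 2 slides. In adenoma against small intestine the log2 fold changes in slides 1 and 2 were 3.73 and 3.58 for Nrg1, 3.11 and 3.22 for Btc, and -1.40 and -1.16 for Erbb3. In CT26 against colon they were -1.95 and -2.02 for Erbb2, 5.34 and 3.84 for Ereg, and 4.71 and 5.55 for Nrg1, while Egfr and Erbb3 were not well above background in CT26 and so gave no size. In adenoma against adjacent tissue Nrg1 gave 1.51 and 1.75. With slide as a block the counts of members called were 4 for adenoma against small intestine, 0 for adenoma against adjacent tissue and 5 for CT26 against colon. The share of all genes called in that setting was not taken.

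The rest of the pathway was read from 6 lists of its genes, whose counts stand beside 12.2% of all genes called higher and 12.1% lower in adenoma against small intestine. Among 13 genes whose transcription responds to Ras-MAPK signalling, 7 rose and 0 fell in adenomas against small intestine, with a list median log2 fold change of 2.05 where that of all genes was -0.15. The largest rises were in Etv5 (5.05) and Etv4 (4.99), ETS factors, and Fosl1 (4.06), a partner in AP-1 that the scanner detected in 1 of 3 small intestine samples. Against adjacent tissue Etv5 (2.86), Phlda1 (2.40) and Ier3 (2.37) rose, 3 of 13 beside 2.64% of all genes. Against colon 2 of 13 were called higher beside 2.27% of all genes, Phlda1 (3.12) and Ier3 (2.72), and without colon replicate 3 the count was 3 beside 5.51%, with Egr1 (1.86) added. Proliferation genes moved alongside: 8 of 10 were called higher in adenoma than in small intestine, with medians per array of 3.36 to 3.42 against 1.01 to 2.29, and their part in these lists was not tested.

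Of 16 feedback inhibitors and genes of receptor downregulation, 7 rose and 1 fell in adenomas against small intestine, with a list median of 1.21. Spry2 (log2 fold change 3.18), a Sprouty inhibitor of the Ras pathway that the scanner detected in 1 of 3 small intestine samples, and Dusp4 (3.06), a phosphatase of MAP kinases, were among the largest. Spry4 was at least 2.73-fold higher, since 0 of 3 small intestine arrays gave a signal well above background. Lrig3 (-1.81) was the gene that fell, and it also fell against adjacent tissue (-1.60) and colon (-2.27), where Cblb, a ubiquitin ligase that acts on activated receptors, rose (1.57 and 1.75). Dusp4 rose against colon as well (3.60).

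Among 7 sheddases and their cofactors Adam9 rose against small intestine (1.33) and adjacent tissue (1.30), and no other was called. Among 17 adaptors and genes of the Ras-MAPK cascade 0 rose and 2 fell against small intestine, Map2k1 (-1.24) and Map2k2. The latter was called by a probe other than its brightest, which gave -1.15 (limma adjusted p = 0.0128). In the PI3K list, which also holds Plcg1 and Stat3, 0 of 8 were called in that comparison. Among 5 other family members (Erbb4, Epgn, Nrg2, Nrg3 and Nrg4) 1 passed the filter there and 0 were called.

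In CT26 against colon, where 23.5% of all genes were called higher and 17.1% lower and the median of all genes was 0.32, the responsive list had a median of 3.64, with 7 of 13 called higher and 1 lower. Fosl1 (8.31) and the early growth response genes Egr1 (5.17) and Egr2 (4.48) rose most, and Fos fell (-2.77). Of the feedback list 6 of 16 rose, among them Dusp4 (4.44) and Spry4 (6.04, with 1 of 3 colon arrays well above background), with Dusp5 at least 4.93-fold higher. The list's 2 falls were Spry1, at least 41.1-fold lower, and Lrig3, well above background on 1 of 3 CT26 arrays (-8.89). Among sheddases Rhbdf1 (2.65), an inactive rhomboid needed for ADAM17 maturation, Adam17 (1.61) itself and Adam9 (1.47) rose, and Rhbdl2 (-3.81), a rhomboid protease, fell. Without colon replicate 3 the responsive list had a median of 2.56 with 8 called higher and 1 lower, and the feedback list had 7 called higher and 2 lower.

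In the list of adaptors and Ras-MAPK cascade genes Nras (2.10) and Rasa1 (1.57) rose, and Gab1, a docking protein of EGFR, was at least 11.1-fold lower. Araf was called higher by 1 probe while its brightest gave -1.03 (limma adjusted p = 0.0357). Without colon replicate 3 only Nras was called higher in that list, and Rasa1 gave 1.45 (limma adjusted p = 0.0141). In the PI3K list the catalytic subunit Pik3cb (1.86) and Akt2 (1.55) rose, and the regulatory subunit Pik3r1 (-2.00) fell. Stat3, which that list also holds, fell too (-2.13). Nrg4, an ERBB4 ligand, was at least 5.89-fold lower. Erbb4 itself, the remaining receptor of the family, was well above background on 0 of 14 arrays, at scaled log2 signals of -7.61 to -5.81 over its probes.

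**Figure D4:**
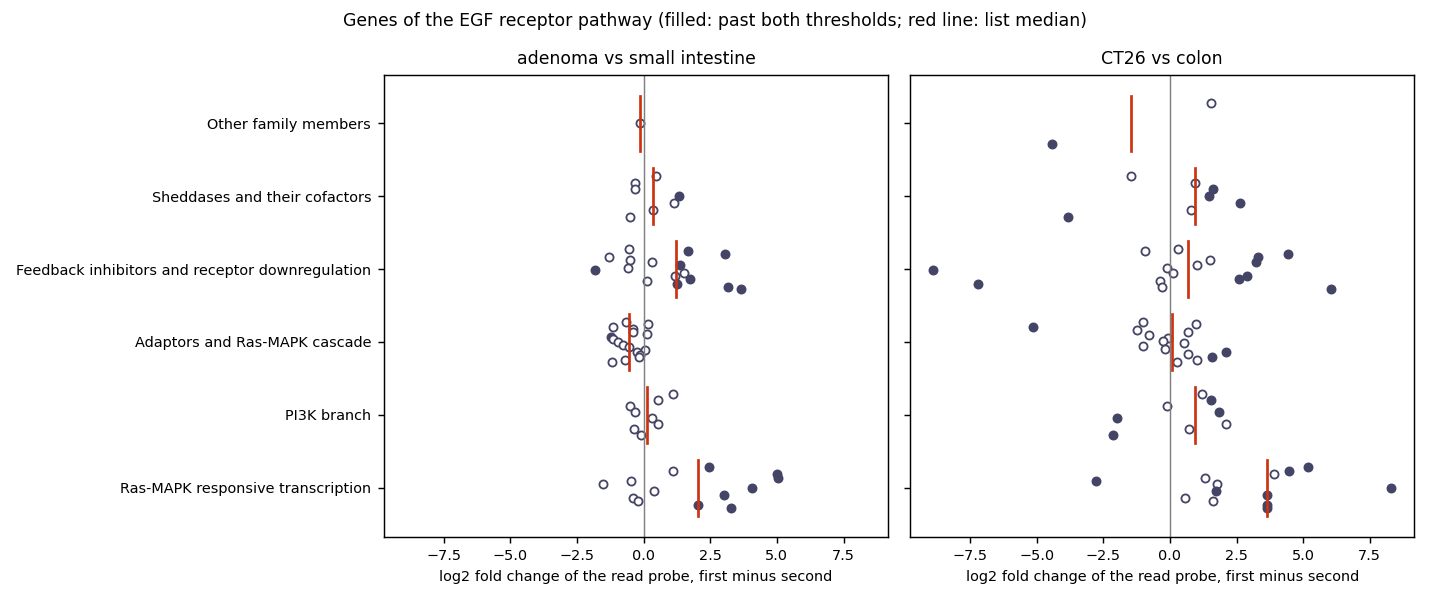
Log2 fold change (first group minus second) of the read probe of each tested gene in 6 pathway lists, for adenoma against small intestine and CT26 against colon; filled points passed both thresholds and red lines are list medians. The responsive genes lie mostly to the right, with medians of 2.05 and 3.64. The adaptors and Ras-MAPK cascade genes lie near 0 in adenomas, at a median of -0.56. Points of genes not well above background in 1 group are fitted values, not bounds.

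Markers of other cells moved with the adenoma results. All 8 of 8 gastric and Brunner gland markers were called higher in adenoma than in small intestine, with medians of 3.86 to 4.15 against -7.10 to -2.28 and summed levels of 8.47 to 9.31 against -1.17 to 2.92, and all 8 were well above background on the adenoma arrays. Enterocyte markers were lower, 6 of 10 called. Macrophage and neutrophil markers had 3 of 8 tested called higher and 1 lower, while their summed level was 4.26 to 4.81 in adenoma against 6.01 to 6.58. The part of these cells in the ligand results was not tested.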

How the data were processed

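Total RNA of 14 samples was hybridised to one-colour 8x60K mouse arrays, and the deposited scanner files hold background-subtracted probe intensity from Feature Extraction 10.7.3.1 with mm9 positions. The authors also deposited a table of normalized log2 values, used here as an alternative; 21 of its columns hold the authors' own comparisons and were not used, nor were 28 further per-sample columns. Log2 intensity was scaled by subtracting the 75th percentile of each array's 55681 non-control probes, outlier spots (103 to 206 per array) were left out, and spots of a probe were averaged. Each pair of groups was fitted on its own arrays with limma 3.58.1 in R 4.3.3, over probes scored well above background throughout at least 1 of the groups compared, with Benjamini-Hochberg adjustment over all probes tested. A gene's read probe is the one with the highest mean over 14 arrays. Where a probe was well above background on no array of the dimmer group, the fold is a bound against the lowest signals scored well above background. That score has no cutoff common to the arrays, and such a bound is not a strict limit. The scripts were tested on simulated data. The number of arrays limits the precision. Genes were named from the files, with 26582 probes named through RefSeq. Up to 3 called genes per pathway list, comparison and direction with the largest change were named. The genes likest to a member were sought for members called in at least 3 comparisons. The members, pathway lists and marker lists were chosen with earlier results of these data known. Alternatives were the authors' values, normexp background correction, quantile normalization, other filters on dim probes, all 5 groups in 1 fit, slide or replicate number as a block, another threshold, and each array left out; within-slide values and pathway lists without colon replicate 3 were added after seeing the data.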

Additional observations from a re-analysis of the deposited data

Results flagged for a closer look

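Between the CT26 to colon contrast and the adenoma to small intestine contrast, 4 members differed by limma's test of that difference itself. The difference in log2 fold change was -9.05 for Egfr and -5.12 for Erbb3, where the CT26 arrays were not well above background and the fitted size is no measurement. It was -2.74 for Btc, which rose in adenomas and overlapped colon in CT26, and 3.27 for Hbegf, whose log2 fold change was 2.63 in CT26 and -0.64 in adenomas, neither of them called alone. No group held enough arrays to be searched for single outlying arrays, since each had 3 or fewer.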

How the results depend on the processing

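The share of all genes called was not taken in these alternatives, except without colon replicate 3, so the counts below have no background beside them. In adenoma against small intestine the count of members called (4) became 2 with all 5 groups in one fit. It became 7 at an adjusted p of 0.05 with no minimum fold, and 2 to 5 when single arrays were left out. In that comparison 17540 of 29539 probes had an unadjusted limma p under 0.05. In adenoma against adjacent tissue the count (1) became 3 with the authors' table, normexp or the stricter filter, 0 with no filter, all 5 groups in one fit or slide as a block, 5 at an adjusted p of 0.05, and 0 to 3 when single arrays were left out. In adenoma against colon the count (0) became 1 with the authors' table or normexp, 2 with all 5 groups in one fit, 4 at an adjusted p of 0.05, and 0 to 2 when single arrays were left out. In adjacent tissue against small intestine it became 1 at an adjusted p of 0.05. For the difference of the tumour contrasts the count (4) became 2 under the stricter filter, which removed Erbb3 and Btc from the test; for the other changes the cause was not tested. With replicate number as a block, 0 members were called in adenoma against adjacent tissue. The replicate numbers are not known to pair samples. Titles of the adjacent arrays carry other numbers than their replicate labels, and a pairing by title was not fitted. The correlations of deviations between samples of the same replicate label ran from -0.322 to 0.291 over the comparisons. The median log2 difference of all genes between CT26 and colon was 0.32 as scaled here, 0.11 with normexp, 0.36 with quantile normalization and 0.26 with the authors' table.

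The sign turned only for members that were not called. Tgfa in adenoma against adjacent tissue became -0.06 with normexp, Btc in colon against small intestine -0.05 with quantile normalization, and in CT26 against colon Btc became -0.09 with normexp and Egf 0.28 with quantile normalization. The Egf difference between the tumour contrasts became 0.00 with normexp and ran from -0.20 to 1.45 when single arrays were left out. Over the fits that left out single arrays, the log2 fold change in adjacent tissue against small intestine ran from -0.55 to 0.36 for Ereg, -0.45 to 0.17 for Erbb3 and -0.15 to 0.56 for Areg; in colon against small intestine from -0.10 to 0.22 for Egfr, -0.24 to 0.56 for Btc and -1.47 to 0.04 for Ereg; and in CT26 against colon from -1.30 to 0.35 for Egf, -0.10 to 0.70 for Btc and -1.89 to 0.47 for Areg.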
